A study of Danio rerio with 6 samples.

Results

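The genes described here encode the machinery that moves proteins along cilia: intraflagellar transport (IFT) subunits, the BBSome and its partners, and the motors that pull them. They were chosen by their known role, as a list of 35 symbols drawn up with earlier results of these data known, and 33 of them matched an Ensembl identifier in the count tables. The symbols *ift43* and *ift122*, both IFT-A subunits, matched none and were not analysed here. The libraries were made from whole thymi of adult zebrafish aged 3 months. One genotype was *foxn1*-/-, a line with an internal deletion of *foxn1* in every cell (hereafter mutants), and it was compared with *foxn1*+/+ fish (wild types). Each genotype had 3 libraries, each of RNA pooled from 3 fish. *foxn1* encodes a transcription factor of thymic epithelial cells, and the study used these libraries to ask which thymic cell types depend on it.

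A cilium is a thin extension of the cell surface built around microtubules, and it cannot make its own proteins. IFT trains carry cargo from the base to the tip under kinesin-2 motors, and back to the base under the dynein-2 motor. The trains hold an IFT-B complex, known for transport to the tip, and an IFT-A complex, known for the return and for entry of membrane proteins. The BBSome rides on the trains and takes membrane proteins out of the cilium. Primary cilia, which sense signals on many cell types, and motile cilia, which beat on specialized epithelial cells, share this machinery, whereas the axonemal dyneins, radial spokes and tektins belong to motile cilia.

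Total counts ranged from 40960276 to 42198532 in mutants and from 31989159 to 41685232 in wild types. The targeted gene *foxn1* had 114, 129 and 66 counts in mutants, against 495, 375 and 349 counts in wild types (log2 fold change -1.79), and reads outside the deleted part still count. Markers of the labelled tissue were uneven between genotypes: 14 thymocyte genes summed to between 202 and 618 CPM (read counts relative to the library total as normalized by TMM) in mutants and to between 8792 and 11280 CPM in wild types. Of 7 thymic epithelium genes tested, 5 were called lower and 1 higher, where 35.9% of all genes tested were lower and 36.2% higher. The cortical epithelial gene *psmb11a* had 0 counts in every mutant, whereas *cxcl12a* rose (log2 fold change 1.53) and *fezf2* was not called (0.04). These 7 genes summed to between 366.5 and 524.2 CPM in mutants and to between 473.3 and 784 CPM in wild types, with overlap. Most of the mutant sums came from *cxcl12a*, with 459.7, 416.6 and 316 CPM in mutants, against 134.4, 146.3 and 131.7 CPM in wild types. The overlap of the sums therefore does not describe the genes called lower, such as *ccl25a* (60.9, 51.3 and 48.2 CPM in mutants, against 498.1, 211.8 and 219.2 CPM in wild types). Muscle genes summed to between 106100 and 148100 CPM in mutants and to between 7442 and 17750 CPM in wild types. Photoreceptors and neurons carry cilia of their own. Photoreceptor genes summed to 12.4, 41.3 and 794 CPM in mutant replicates 1, 2 and 3, against 38.5, 33.6 and 27.5 CPM in wild types, and neuron genes to 360, 969 and 663 CPM in mutants, against 78.5, 207 and 241 CPM in wild types. Of the neuron genes 12 of 16 tested were called higher in mutants, and of the photoreceptor genes 5 of 20, where 36.2% of all genes tested were. The part of any of these cell types, thymocytes and muscle included, in the results below was not tested. In such bulk samples, fewer cells of a type and less RNA per cell cannot be told apart.

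All 33 genes passed the filter of more than 5 counts in at least 3 libraries, as did 23805 genes in all. At an adjusted p under 0.05 (edgeR's quasi-likelihood test, Benjamini-Hochberg adjustment over all genes tested), 7 of the 33 were higher and 7 lower in mutants. These 14 genes make up 42.4% of the group, where 72.1% of all genes tested differed between genotypes (36.2% higher and 35.9% lower). The median log2 fold change, mutant over wild type, was -0.01 for the group and 0.02 for all genes. The group also spread less around this centre: the median absolute log2 fold change was 0.44, against 1.15 over all genes, and 4 of the 33 (12.1%) moved by more than 1 on the log2 scale, against 55.7% of all genes. Mutant and wild-type libraries did not overlap in CPM for 18 members (54.5%), where this held for 77.2% of all genes. No set test was run, and these shares are descriptions.

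The scale of the values matters for changes this small. Scaling by library size alone in place of TMM moved the log2 fold changes by a median of -0.40, and then 13 members were lower and 1 was higher: the rises of *ift46*, *ift57*, *arl6*, *kif3a*, *kif3b* and *dync2li1* were no longer called. Of all 23805 genes tested, 17532 were called with this scaling, and 38.4% of these calls were higher in mutants. The 10 genes with the most counts took between 26.1% and 30.0% of the counts in mutants, against between 13.1% and 14.6% in wild types. The member median, set against that of all genes, was -0.03 under both scalings. Rises and falls given here are relative to the bulk of the transcriptome.

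**Figure D1:**
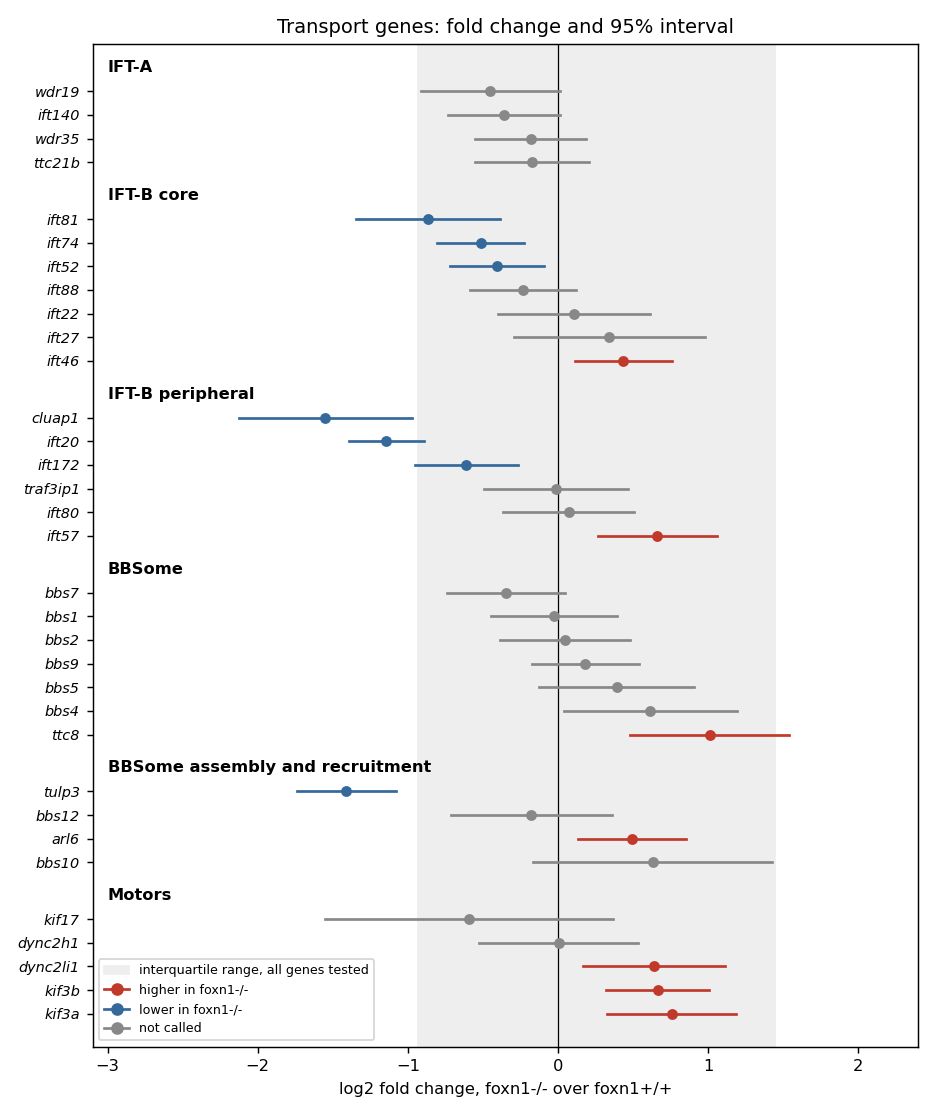
Log2 fold change of each transport gene, mutant over wild type, with its 95% interval from edgeR, grouped by complex. Colours mark genes higher, lower or not called at an adjusted p under 0.05, and the grey band is the interquartile range of all 23805 genes tested, from -0.93 to 1.44. The points of *cluap1*, *ift20* and *tulp3* lie to the left of the band.

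Of the 13 IFT-B subunits among the members, 6 were lower in mutants (46.2%, where 35.9% of all genes tested were). Another 2 were higher (15.4%, where 36.2% of all genes tested were), and the median log2 fold change was -0.24. The share that was lower is near that of all genes. The core and the peripheral subcomplexes each had 3 lower (42.9% and 50%) and 1 higher (14.3% and 16.7%). The subunits *hspb11* and *ift56*, counted below with the other transport genes, are not among these 13. Neither was called (edgeR, adjusted p = 0.11 and 0.168).

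Among the 6 peripheral subunits, *cluap1* (ENSDARG00000079110), which encodes IFT38, fell most. It had 4.90, 8.13 and 6.93 CPM in mutants, against 17.1, 16.5 and 24.9 CPM in wild types. The genotypes lay well apart, with the highest mutant at less than the lowest wild type. Its log2 fold change was -1.55 (SE 0.243, adjusted p = 0.00107). *ift20* (ENSDARG00000040556) encodes a small subunit that also sits at the Golgi apparatus, where it sorts proteins bound for the cilium; in human T cells, which have no cilium, it takes part in traffic to the immune synapse. *ift20* had 14.3, 13.8 and 15.6 CPM in mutants, against 32.4, 30.6 and 33.7 CPM in wild types. Its replicates were close to each other in both genotypes, with means of 14.6 ± 0.938 CPM in mutants and 32.2 ± 1.57 CPM in wild types (SD, n = 3 each). The log2 fold change was -1.14 (SE 0.106, adjusted p = 0.00011), and the part of thymocytes in this fall was not tested. *ift172* (ENSDARG00000041870), the largest IFT-B subunit, involved in the turnaround of trains at the tip, had 7.02, 8.40 and 8.10 CPM in mutants, against 12.1, 10.5 and 13.3 CPM in wild types (log2 fold change -0.61, adjusted p = 0.0074).

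The other peripheral subunits did not fall. *ift57* (ENSDARG00000021022), a partner of the kinesin-2 motor, rose, with 5.01, 5.11 and 6.04 CPM in mutants, against 3.72, 3.13 and 3.36 CPM in wild types (log2 fold change 0.66, SE 0.169, adjusted p = 0.0097). *ift80* had 7.34, 6.81 and 9.68 CPM in mutants, against 8.56, 6.69 and 7.42 CPM in wild types, and was not called (log2 fold change 0.07, 95% interval from -0.36 to 0.51). *traf3ip1*, which encodes the microtubule-binding subunit IFT54, had 2.19, 2.69 and 2.14 CPM in mutants, against 2.16, 2.39 and 2.53 CPM in wild types. Its genotypes overlapped, and the 95% interval of its log2 fold change ran from -0.49 to 0.47.

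In the IFT-B core, *ift74* and *ift81* encode a pair of coiled-coil proteins that together form the module that binds tubulin, and both fell. *ift81* (ENSDARG00000007444) had 4.23, 5.09 and 5.99 CPM in mutants, against 8.62, 7.97 and 11.3 CPM in wild types (log2 fold change -0.87, SE 0.203, adjusted p = 0.0068). *ift74* (ENSDARG00000023495) had 13.7, 13.8 and 16.7 CPM in mutants, against 21.7, 21.5 and 20.0 CPM in wild types (log2 fold change -0.52, SE 0.123, adjusted p = 0.0072). In neither gene did the genotypes overlap. With voom and treat, which asks for a fold change beyond 1.2, *ift74* missed the threshold (adjusted p = 0.0559).

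*ift52* (ENSDARG00000045025), around which the core is assembled, had 6.97, 7.54 and 7.57 CPM in mutants, against 10.7, 9.19 and 9.28 CPM in wild types. Its call (log2 fold change -0.40, adjusted p = 0.0276) did not hold without wild-type replicate 1 or without any one of the mutant libraries (adjusted p between 0.0593 and 0.11). The call was also lost in edgeR with upper-quartile scaling (adjusted p = 0.0523) or no filter (0.0516), and with voom and treat (0.211). *ift46* (ENSDARG00000011240), known from the alga *Chlamydomonas* as a carrier of outer dynein arms, went the other way, with 10.87, 13.14 and 11.04 CPM in mutants, against 8.621, 9.296 and 8.003 CPM in wild types. Its rise (log2 fold change 0.44, adjusted p = 0.0239) was lost without mutant replicate 2 (adjusted p = 0.0508), wild-type replicate 1 (0.0591) or wild-type replicate 3 (0.0732).

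The remaining core genes overlapped or lay close. *ift88* (ENSDARG00000027234), whose loss leaves mouse cells without cilia, had 6.97, 8.13 and 7.94 CPM in mutants, against 8.43, 8.37 and 10.3 CPM in wild types. All mutants lay below all wild types, but by little, and the gene was not called (log2 fold change -0.24, adjusted p = 0.191), although it was called lower with library size alone (log2 fold change -0.635, adjusted p = 0.00718). *ift22*, a small GTPase-like subunit, had 2.19, 2.75 and 3.07 CPM in mutants, against 2.78, 2.31 and 2.35 CPM in wild types (adjusted p = 0.676). *ift27*, another small GTPase-like subunit, needed for exit of the BBSome, was the most variable of the core in mutants, with 3.96, 7.21 and 5.27 CPM, against 4.24, 5.31 and 3.44 CPM in wild types (adjusted p = 0.285).

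**Figure D2:**
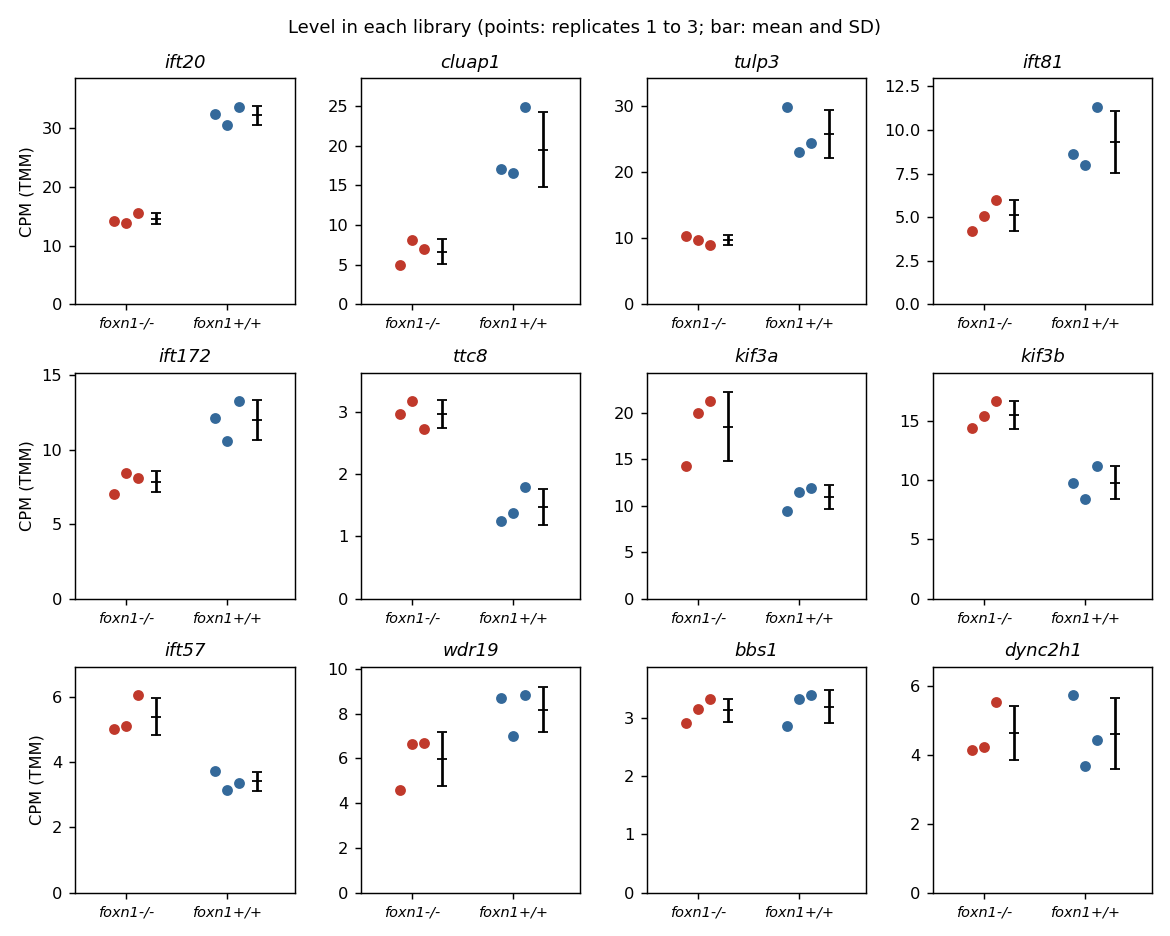
Normalized CPM of 12 transport genes in each library (points, replicates 1 to 3 from left to right), with the mean and SD of each genotype as a bar to the right; every vertical axis starts at 0. *ift20*, *cluap1*, *tulp3*, *ift81* and *ift172* are lower in all 3 mutants, *ttc8*, *kif3a*, *kif3b* and *ift57* are higher in all 3, *wdr19* lies lower without a call, and *bbs1* and *dync2h1* overlap.

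Several IFT and BBSome proteins bind each other in fixed pairs, and the ratio of the counts of both genes within a library does not depend on how libraries are scaled. Such ratios depend on transcript length, so they were compared between libraries only. The 10 pairs were picked after the values above were seen, and with 3 libraries against 3 an exact two-sided permutation test cannot give a p below 0.1. The ratio of *ift57* to its partner *cluap1* was 1.02, 0.629 and 0.873 in mutants, against 0.217, 0.190 and 0.135 in wild types, a 4.65-fold difference without overlap. For *traf3ip1* over its partner *ift20* it was 0.153, 0.195 and 0.137 in mutants, against 0.0667, 0.0782 and 0.0752 in wild types, a 2.18-fold difference without overlap. Within each of these 2 pairs, both of which join coiled-coil proteins of the peripheral subcomplex, 1 partner fell and the other did not. The ratio of *ift46* to *ift52* was 1.56, 1.74 and 1.46 in mutants, against 0.804, 1.01 and 0.862 in wild types (1.78-fold). That of *ttc8* to *bbs9*, neighbours in the BBSome, was 0.495, 0.470 and 0.370 in mutants, against 0.215, 0.249 and 0.278 in wild types (1.80-fold). These 4 pairs and *ift81* over *ift74* each gave the smallest exact permutation p of 0.1, although the last pair was apart only narrowly (0.369 in the highest mutant and 0.371 in the lowest wild type).

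For the other 5 pairs the genotypes overlapped. The ratio of *kif3a* to *kif3b* was 0.996, 1.29 and 1.28 in mutants, against 0.974, 1.37 and 1.06 in wild types (exact permutation p = 0.9), and those of *ift140* to *wdr19* (p = 0.7), *ift88* to *ift52* (p = 0.4), *bbs7* to *bbs2* (p = 0.3) and *hspb11*, which encodes IFT25, to *ift27* (p = 0.3) overlapped likewise in the same exact permutation test.

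**Figure D3:**
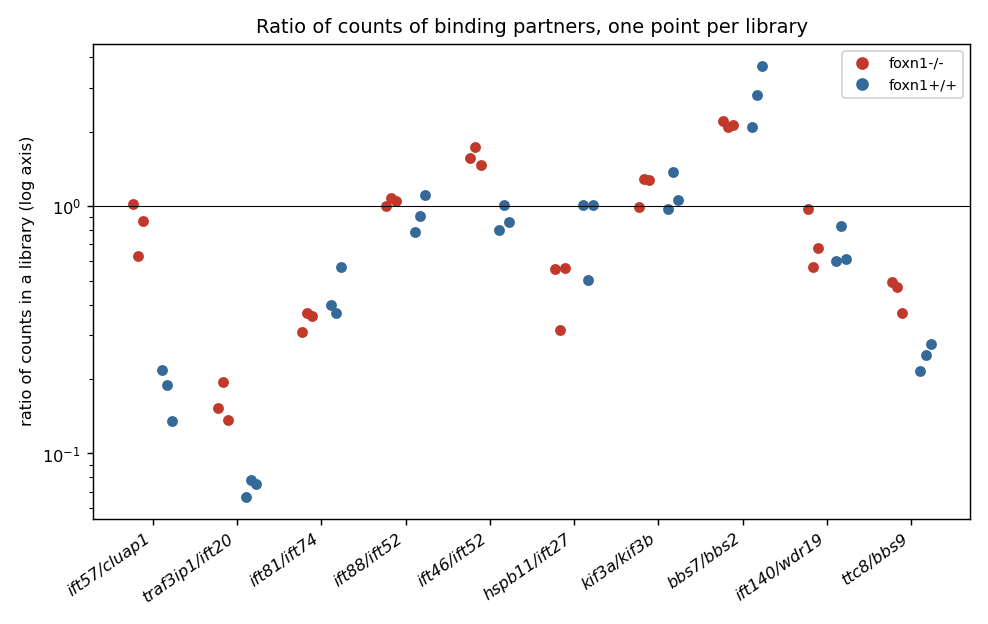
Ratio of the counts of binding partners in each library, on a log axis, with mutants to the left of wild types in each pair. The ratios of *ift57* to *cluap1* and of *traf3ip1* to *ift20* separate the genotypes most widely, at 4.65-fold and 2.18-fold, and those of *kif3a* to *kif3b* overlap.

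Of the 4 IFT-A genes measured, none was called, where 72.1% of all genes tested were (edgeR). None of the 4 had an unadjusted p under 0.05, and none was called with DESeq2 or with voom and treat. All 4 had negative log2 fold changes, from -0.45 to -0.17. *wdr19* (ENSDARG00000037406), which encodes the core subunit IFT144, had 4.60, 6.65 and 6.68 CPM in mutants, against 8.70, 7.01 and 8.83 CPM in wild types. *ift140* (ENSDARG00000031886), its neighbour in the core, had 4.49, 3.77 and 4.55 CPM in mutants, against 5.21, 5.84 and 5.39 CPM in wild types. Both genes were lower in all 3 mutants than in any wild type and missed the threshold narrowly in the main fit (edgeR, adjusted p = 0.0726 and 0.0747). Over the alternatives, the adjusted p of *wdr19* ran from 0.00771 (edgeR, library size alone) to 0.224 (voom and treat). That of *ift140* ran from 0.00399 to 0.343 with the same settings. *wdr35*, which encodes IFT121, had 6.44, 8.37 and 6.79 CPM in mutants, against 8.62, 7.46 and 8.40 CPM in wild types. *ttc21b*, which encodes the peripheral subunit IFT139, had 3.44, 3.96 and 3.69 CPM in mutants, against 3.93, 4.33 and 4.24 CPM in wild types. The last 2 genes overlapped between genotypes. With library size alone, all 4 IFT-A genes were called lower (adjusted p between 0.00399 and 0.0173), so that for this complex the call depends on the scale. Under that scaling 17532 of all 23805 genes tested were called, with 38.4% of these calls higher.

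Few BBSome subunits were called in the main fit. Of the 7 subunits among the members, 1 was higher (14.3%, where 36.2% of all genes tested were) and none was lower (35.9% of all genes tested). The other 6 subunits were not called, and the median log2 fold change of the 7 subunits was 0.18. With library size alone that median was -0.22, with 1 subunit called higher and 1 lower. The summed level of these 7 was 30.9 ± 2.90 CPM in mutants and 29.1 ± 1.95 CPM in wild types (SD, n = 3 each), and these sums overlapped. Sums of the other transport groups did not overlap between genotypes. Mean sums were lower in mutants for IFT-A (21.1 against 26.0 CPM), core IFT-B (54.7 against 64.6 CPM) and peripheral IFT-B (44.7 against 77.0 CPM). They were also lower for the BBSome's assembly and recruitment genes (21.5 against 34.7 CPM), and higher for motors (41.7 against 27.7 CPM). The BBSome sums leave out a further subunit, *bbip1*, which is counted below with the other transport genes. *bbip1* had 18.6, 22.0 and 20.9 CPM in mutants, against 16.45, 14.8 and 18.2 CPM in wild types. Its genotypes did not overlap, and it was not called (edgeR, adjusted p = 0.0572). The 1 subunit called higher was *ttc8* (ENSDARG00000099481), which encodes BBS8. It had 2.97, 3.18 and 2.73 CPM in mutants, against 1.25, 1.38 and 1.79 CPM in wild types, a 2.01-fold difference (log2 fold change 1.01, SE 0.224, adjusted p = 0.00526). It was the only member called higher under every alternative tried, library size alone included.

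*bbs1*, the subunit that binds the GTPase Arl6, had 2.92, 3.15 and 3.32 CPM in mutants, against 2.87, 3.32 and 3.39 CPM in wild types. *bbs2*, part of the BBSome core, had 3.41, 4.17 and 4.20 CPM in mutants, against 4.26, 3.77 and 3.39 CPM in wild types. The genotypes were interleaved in both, and the 95% intervals of their log2 fold changes ran from -0.45 to 0.39 for *bbs1* and from -0.39 to 0.48 for *bbs2*. *bbs9*, a scaffold of the complex, had 6.004, 6.76 and 7.38 CPM in mutants, against 5.80, 5.55 and 6.43 CPM in wild types (adjusted p = 0.312), and *bbs5*, which binds phosphoinositides, had 2.19, 2.83 and 2.84 CPM in mutants, against 2.08, 2.21 and 1.71 CPM in wild types (adjusted p = 0.145). *bbs7*, the dimer partner of *bbs2*, had 7.49, 8.69 and 8.93 CPM in mutants, against 8.89, 10.5 and 12.5 CPM in wild types. It was not called (adjusted p = 0.0979) but was called lower without wild-type replicate 1 (0.0468) and with library size alone (log2 fold change -0.75, adjusted p = 0.00578). *bbs4*, which links the complex to centriolar satellites, had 2.68, 2.83 and 3.93 CPM in mutants, against 2.41, 1.70 and 2.05 CPM in wild types. Its genotypes did not overlap, yet it missed the threshold (log2 fold change 0.61, adjusted p = 0.055) and passed it only under 3 alternatives, among them without mutant replicate 2 (0.0498).

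Among the genes grouped here with the BBSome's partners, *tulp3* (ENSDARG00000063672) fell strongly. Its protein binds IFT-A and membrane phosphoinositides and brings membrane receptors into the cilium. *tulp3* had 10.4, 9.74 and 8.93 CPM in mutants, against 29.8, 23.0 and 24.4 CPM in wild types. No mutant reached the lowest wild type, and the log2 fold change was -1.41 (SE 0.14, adjusted p = 0.000146), or 2.66-fold lower in mutants. *arl6* (ENSDARG00000032056), also named BBS3, encodes the GTPase that recruits the BBSome to membranes. It rose, with 7.55, 9.66 and 9.36 CPM in mutants, against 6.23, 5.95 and 6.70 CPM in wild types (log2 fold change 0.49, adjusted p = 0.0215). That call was lost without wild-type replicate 1 (0.0552) or 2 (0.062). *bbs10* and *bbs12* encode chaperonin-like proteins that assemble the BBSome. *bbs10*, a gene with few counts, had 0.962, 1.61 and 1.47 CPM in mutants, against 0.706, 0.717 and 1.201 CPM in wild types (adjusted p = 0.131). *bbs12* had 1.603, 1.94 and 1.34 CPM in mutants, against 1.85, 1.86 and 1.81 CPM in wild types (adjusted p = 0.5). In both the genotypes overlapped.

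Of the 5 motor genes, 3 were higher and none was lower, where 36.2% of all genes tested were higher, and the median log2 fold change was 0.64. With library size alone, 0 of the 5 were called. *kif3a* (ENSDARG00000087538) and *kif3b* (ENSDARG00000101120) encode the heterodimeric kinesin-2 that drives trains to the tip and also works outside cilia. *kif3a* had 14.3, 20.0 and 21.3 CPM in mutants, against 9.49, 11.5 and 11.9 CPM in wild types (log2 fold change 0.76, SE 0.182, adjusted p = 0.0075). *kif3b* had 14.4, 15.4 and 16.7 CPM in mutants, against 9.74, 8.42 and 11.2 CPM in wild types (log2 fold change 0.66, SE 0.146, adjusted p = 0.00502). Every mutant library lay above every wild type for both. Both calls held without each library in turn, but not with library size alone (adjusted p = 0.132 for *kif3a* and 0.135 for *kif3b*).

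*kif17* (ENSDARG00000055238), a homodimeric kinesin-2, had only 16, 10 and 17 counts in mutants, against 24, 16 and 33 counts in wild types. At this depth a difference was not detectable (log2 fold change -0.59, 95% interval from -1.55 to 0.37). Of the dynein-2 genes, *dync2li1* (ENSDARG00000039770), the light intermediate chain, rose, with 2.51, 2.83 and 2.51 CPM in mutants, against 1.70, 1.83 and 1.49 CPM in wild types (log2 fold change 0.64, adjusted p = 0.0227). Without wild-type replicate 1 or 3 it was not called (adjusted p = 0.055 and 0.0702). *dync2h1* (ENSDARG00000113761), the heavy chain that holds the motor domain, had 4.14, 4.23 and 5.54 CPM in mutants, against 5.73, 3.69 and 4.43 CPM in wild types. Its mean was 4.63 ± 0.782 CPM in mutants and 4.62 ± 1.03 CPM in wild types (SD, n = 3 each), and the 95% interval of its log2 fold change ran from -0.52 to 0.53.

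Mutant replicate 1 stood at the low end of its genotype for most of the group. It was the lowest mutant library for 25 of 33 members, where it was the lowest for 31.9% of all genes tested. The 33 genes summed to 193, 223 and 229 CPM in mutants, against 261, 244 and 272 CPM in wild types, and without this library the counts of calls were 6 lower and 7 higher. Without mutant replicate 3, the library with the high photoreceptor sum, they were also 6 lower and 7 higher. The library that moved the counts most was wild-type replicate 1, without which 7 were lower and 4 higher.

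The rest of the cilium was compared as fixed lists, with counts of calls beside the shares of all genes given above. The other transport genes (15 identifiers, among them further subunits of IFT-B, the BBSome, kinesin-2 and dynein-2) had 5 higher and 2 lower, with a median log2 fold change of -0.03 (4 higher and 7 lower with library size alone). Both identifiers listed under *kif3c*, a kinesin-2 subunit known from neurons in mammals, rose most, by 2.43 (adjusted p = 0.00335) and 1.94 (adjusted p = 0.0157) on the log2 scale. The second of them had 103, 410 and 317 counts in mutants, against 48, 83 and 101 counts in wild types, and the part of neurons in these values was not tested. The transition zone is the gate at the base of the cilium. Its list of 19 identifiers had 10 higher and 3 lower (median 0.55), or 2 higher and 6 lower with library size alone, with *nphp4* at 4.47 ± 0.323 CPM in mutants and 11.03 ± 1.196 CPM in wild types (SD, n = 3 each, log2 fold change -1.30) and the low-count gene *iqcb1* (ENSDARG00000093431) at 1.73 ± 0.38 CPM in mutants and 0.409 ± 0.456 CPM in wild types (SD, n = 3 each, log2 fold change 2.1005).

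Genes of hedgehog signalling, a pathway that vertebrate cells run through the primary cilium, were mostly higher. Of 12 identifiers, 9 were higher and 1 lower, with a median log2 fold change of 1.85. *gli1*, a transcription factor and target of the pathway, had 145, 141 and 141 counts in mutants, against 10, 22 and 20 counts in wild types (log2 fold change 3.17, adjusted p = 0.000307), and *hhip*, another target, had 776, 576 and 699 counts in mutants, against 108, 123 and 120 counts in wild types (log2 fold change 2.71, adjusted p = 7.0e-05). Connective tissue genes, 13 of 13 higher, had a median of 2.38 and summed to between 17760 and 26250 CPM in mutants and to between 1582 and 7071 CPM in wild types, and their part in the rise of the hedgehog genes was not tested.

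In contrast, genes of centrioles, genes of motile axonemes and cilium regulators were mostly lower. Of 10 centriole and basal body genes, 7 were lower and 1 higher (median -1.57), led by *sclt1* and *cep97*, which fell by 2.04 and 1.79 on the log2 scale (adjusted p = 4.1e-05 and 4.5e-05). Proliferation genes, 11 of 11 lower, had a median of -3.67, and their part in the fall of centriole genes was not tested. Of 28 motile axoneme genes tested, 26 were lower and 1 was higher, with a median log2 fold change of -2.09. *cfap52*, a protein inside axonemal microtubules, had 25, 26 and 18 counts in mutants, against 440, 294 and 302 counts in wild types, and *capsla* had 12, 27 and 12 counts in mutants, against 413, 223 and 198 counts in wild types. Of 13 cilium regulators, RFX transcription factors among them, 11 were lower and 1 higher (median -1.81). *foxj1a*, which switches on motile cilium genes, fell by 4.39 on the log2 scale, and *e2f5*, which acts in multiciliated cells, by 3.40 (adjusted p = 2.2e-05 and 3.1e-05). The part of proliferation in the fall of the regulators was not tested either.

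The transport machinery lay between lists that moved in opposite directions. Medians of the 6 transport groups ran from -0.31 (peripheral IFT-B) to 0.64 (motors), against -2.09 for motile axoneme genes and 1.85 for hedgehog genes, and the largest fall among the 33 members, that of *cluap1* at -1.55, was smaller than the median fall of the axoneme list. The middle position was not particular to these groups. Medians of the transition zone (0.55), of the other transport genes (-0.03) and of all genes tested (0.02) lay within their range. No test of the difference between lists was run.

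**Figure D4:**
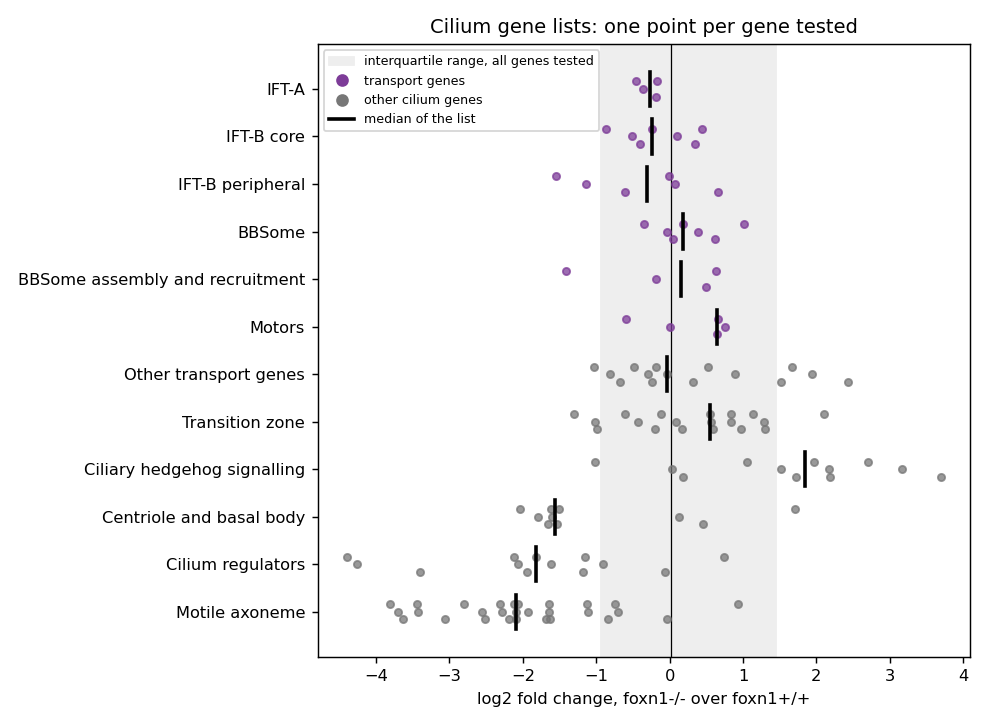
Log2 fold change, mutant over wild type, of each gene tested in 12 cilium lists (points), with the list median as a black bar and the interquartile range of all genes tested as a grey band. The 6 transport groups have medians between -0.31 and 0.64, whereas centriole, regulator and motile axoneme genes have medians between -2.09 and -1.57 and hedgehog genes a median of 1.85. Medians of the transition zone and of the other transport genes lie within the range of the transport groups.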

How the data were processed

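Whole-thymus polyA RNA was sequenced from 6 libraries (3 per genotype). According to the submitters' processing notes and the Methods, the authors trimmed reads with Trim Galore 0.4.3.1, aligned them with HISAT2 2.1.0 to GRCz11 and counted them with featureCounts 1.6.1.0, and deposited raw counts per Ensembl gene. Which annotation release was used, whether strand was read and how reads with several hits were handled is not given in the sources used here, so overlapping genes and near-identical paralogues are uncertain.

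Genotypes were taken from the sample titles. The 23805 genes that exceeded 5 counts in 3 or more libraries were normalized by TMM and compared by edgeR 4.0.16 (quasi-likelihood test, robust, two-sided, R 4.3.3), with Benjamini-Hochberg adjustment over all genes and a threshold of 0.05. SE is the absolute log2 fold change over the square root of F, and 95% intervals use its *t* distribution. The alternatives were DESeq2 1.42.0, voom and treat (limma 3.58.1, fold 1.2, as in the Methods), other scalings and filters, the replicate number as a block, and each library left out. Symbols came from a reference table that names 29201 of the identifiers. Members, gene lists and alternatives were chosen with earlier results of these data known. All members are named; of other cilium lists, the 2 genes with the largest change among those called at a mean of at least 1 CPM. Promoter motifs were not analysed here, nor were gene positions. In these libraries 3 counts correspond to between 0.0623 and 0.0874 CPM.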

Additional observations from a re-analysis of the deposited data

How the results depend on the processing

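Over 14 alternatives, 401 of 462 member results kept their direction and side of the threshold, and none of the 14 called members changed direction. The falls of *ift81*, *ift20*, *ift172*, *cluap1* and *tulp3* and the rise of *ttc8* were called under all 14. With library size alone 13 members were lower and 1 higher (median -0.415), and the share of higher genes among all calls was 38.4%, against 50.2% with TMM; *ift22* (-0.30), *ift27* (-0.0621), *ift80* (-0.33), *bbs2* (-0.36), *bbs5* (-0.0139), *bbs9* (-0.22) and *dync2h1* (-0.40) then had negative log2 fold changes. With voom and treat 5 members were lower and 4 higher. The calls lost in that test were those of *ift46* (adjusted p = 0.171), *ift52* (0.211), *ift74* (0.0559), *arl6* (0.125) and *dync2li1* (0.0675). The members' median turned positive with upper-quartile scaling (0.0365), no filter (0.0158) and at least 10 counts in every library (0.0134), as did *traf3ip1*, the gene at the median (0.0365, 0.0158 and 0.0134), and *bbs1* (0.0191) with upper-quartile scaling, while *dync2h1* was at -0.0112 with DESeq2 and at -0.0103 with its size factors in edgeR. Leaving out each library in turn gave between 4 and 7 members higher, medians from -0.0738 to 0.0604, and log2 fold changes of no fixed sign for *ift80* (-0.0513 to 0.204), *traf3ip1* (-0.0895 to 0.0919), *bbs1* (-0.101 to 0.0453), *bbs2* (-0.0323 to 0.16) and *dync2h1* (-0.134 to 0.191). These are members without a call.

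With a replicate block, 6 members were lower and 7 higher, and the call of *ift52* was lost (adjusted p = 0.0739, edgeR). Deviations from the genotype mean correlated at 0.139, -0.117 and -0.0121 between same-numbered libraries. Between differently numbered libraries these correlations ran from -0.139 to 0.157. With 3 libraries per genotype, such values cannot tell whether the numbers pair the samples. Depth limits *kif17*, with between 10 and 33 counts a library, and *bbs10*.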
